A study of Arabidopsis thaliana with 10 samples.

Results

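The genes described here are JOX2, JOX3, JOX4 and JMT of *Arabidopsis thaliana*, which act on jasmonic acid once it has been made. They were chosen by name, with earlier results of these data known, 1 probe set each. They are 4 of the 22810 probe sets on the Affymetrix ATH1 array. All 4 passed the filter on low values, which kept 15382 probe sets called Present on at least 2 of the 10 arrays.

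Jasmonic acid is the precursor of the wound hormone jasmonoyl-isoleucine, which is sensed by the COI1 receptor and releases MYC transcription factors from JAZ repressors. JOX2, JOX3 and JOX4 (jasmonate-induced oxygenases) are Fe(II)-dependent 2-oxoglutarate dioxygenases that hydroxylate jasmonic acid and so divert it from the active hormone. JMT, a methyltransferase of the SABATH family, transfers a methyl group to jasmonic acid and gives methyl jasmonate (MeJA), which plant esterases can turn back into jasmonic acid. Jasmonate commonly induces genes of its own synthesis and of its own breakdown.

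The study compared wild-type Col-0 plants with Ri17, a single line in which RNA interference targets JAV1, a VQ motif protein gene that restrains jasmonate defence. Plants were 21 days old. Of each genotype 5 conditions were hybridised, 1 array per condition: untreated, 100 µM MeJA for 1 h, 100 µM MeJA for 4 h, 30 min after wounding and 60 min after wounding. In wounding, 4 rosette leaves were crushed with forceps, with damage to about 30% of each leaf. No group was repeated, nothing in the labels says how many plants an array stands for, and the 2 untreated arrays served as controls for both MeJA and wounding. No array held plants given medium without MeJA, so handling and hormone cannot be told apart. The untreated arrays stand for the start of both treatments, so no treated array has a control harvested at its own time. Time of harvest and treatment therefore cannot be told apart either. The level of JAV1 itself was not analysed here.

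Detection and signal level were similar across the arrays, with 56.9% to 61.0% of probe sets called Present and median signals of 122.4 to 134.3. The samples are labelled as leaves, while the design text speaks of MeJA treatment of seedlings in medium. Leaf markers were strong throughout, since CA1, RCA and SBPASE, the 3 of 6 with a named probe set, were Present on all 10 arrays. Each had its lowest signal on a MeJA array, though the ranges overlapped. CA1 lay between 11170.7 and 21772.2 on MeJA arrays and 14091.9 and 23205.6 on the others. For RCA these ranges were 17633.5 to 30932.6 and 21227.3 to 36668.5, and for SBPASE 3822.9 to 12533.7 and 6233.7 to 18556.1. Among root markers 3 of 7 had a named probe set, and the root hair expansin genes EXPA7 and EXPA18 were Present on none. PYK10, a myrosinase-type glucosidase gene of roots, lay between 901.9 and 2457.9 on the 4 MeJA arrays and between 22.0 and 243.8 on the other arrays. Of 27 poly-A controls 17 did not overlap between the MeJA arrays and the others (median log2 difference 0.53), nor did 6 of 18 hybridization controls (median -0.38). In the same split 3247 of the 15382 kept probe sets (21.1%) did not overlap. The part of these differences in the MeJA results was not tested. In whole leaves, expression in fewer cells and less RNA per cell cannot be told apart.

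JOX2 (AT5G05600, probe set 250793_at, annotated as leucoanthocyanidin dioxygenase-like) was measurable on every array and changed with every treatment. In Col-0 its signal, a scaled intensity, was 327.2 untreated, 12389.7 and 11183.3 after 1 h and 4 h of MeJA, and 4065.3 and 11987.4 at 30 min and 60 min of wounding. In Ri17 the signals in the same order were 327.7, 11903.1, 11579.1, 5203.5 and 9847.3. Both untreated arrays were low and all 8 treated arrays were high, with no overlap. The share of all probe sets that separate in this way was not counted.

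JOX3 (AT3G55970, 251770_at, also known as JRG21) was called Present on 9 arrays. In Col-0 its signal was 180.8 untreated, 231.1 and 1930.2 after 1 h and 4 h of MeJA, and 448.2 and 1857.6 at 30 min and 60 min of wounding. In Ri17 it was 34.6 untreated, where it was called Absent, then 325.8 and 2194.9 under MeJA and 370.9 and 3466.0 after wounding. The arrays at 4 h of MeJA and 60 min of wounding were high, and those at 1 h of MeJA and 30 min of wounding lay between them and the untreated arrays.

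JOX4 (AT2G38240, 267147_at, annotated as a putative anthocyanidin synthase) was called Absent on both untreated arrays and Present on the other arrays. In Col-0 its signal was 42.8 untreated, 10820.6 and 6183.2 after 1 h and 4 h of MeJA, and 240.5 and 4140.7 at 30 min and 60 min of wounding. In Ri17 it was 8.9 untreated, 10505.9 and 4923.3 under MeJA, and 522.3 and 3878.9 after wounding. The levels of all 5 conditions were separate from one another, a pattern not counted over all probe sets.

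JMT (AT1G19640, 261150_at, annotated from a floral nectary protein of *Brassica rapa*) was Present on all 10 arrays and was the only member with its highest signals in untreated plants. In Col-0 its signal was 700.7 untreated, 280.0 and 444.3 after 1 h and 4 h of MeJA, and 150.7 and 478.1 at 30 min and 60 min of wounding. In Ri17 it was 1080.7 untreated, 351.0 and 268.9 under MeJA, and 198.9 and 596.4 after wounding. All 8 treated arrays lay below both untreated arrays, and the share of all probe sets that do so was not counted.

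**Figure D1:**
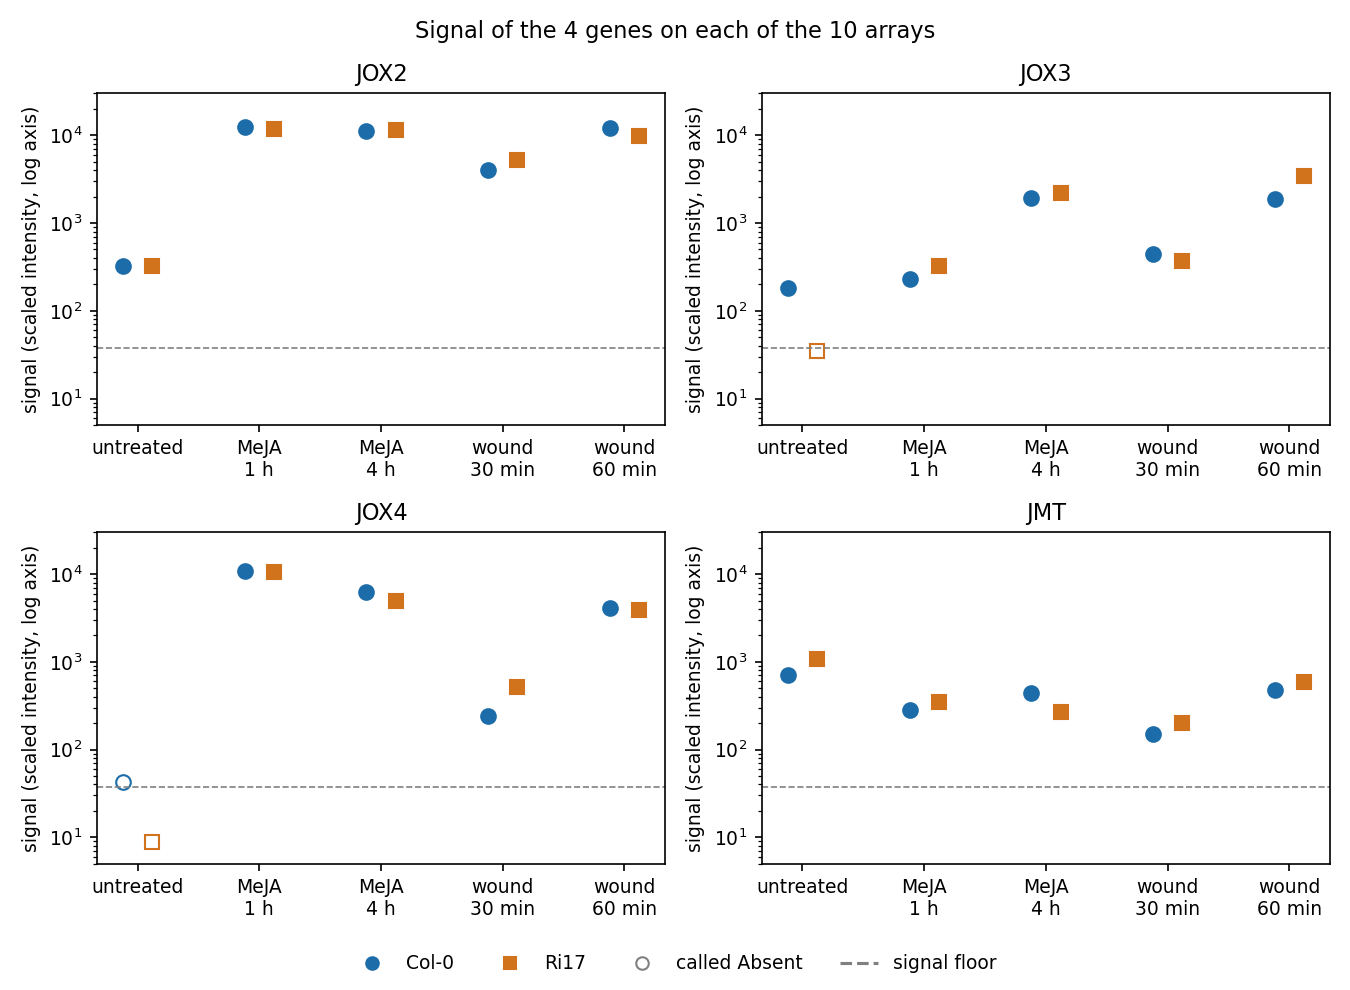
Signal (scaled intensity, log axis) of JOX2, JOX3, JOX4 and JMT on each of the 10 arrays, circles for Col-0 and squares for Ri17, open symbols where the probe set was not called Present, and a dashed line at the signal floor of 37.7. JOX2, JOX3 and JOX4 are lowest in untreated plants, with JOX4 called Absent there in both genotypes, and JMT is highest in untreated plants.

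Ordered by mean log2 signal, the conditions ran differently for each gene. For JOX2 the order from the highest was MeJA 1 h, MeJA 4 h, wounding 60 min, wounding 30 min and untreated, and the arrays at MeJA 4 h and wounding 60 min overlapped. For JOX3 it was wounding 60 min, MeJA 4 h, wounding 30 min, MeJA 1 h and untreated, with overlap between the leading 2 conditions. For JOX4 it was MeJA 1 h, MeJA 4 h, wounding 60 min, wounding 30 min and untreated, without overlap between neighbours. For JMT it was untreated, wounding 60 min, MeJA 4 h, MeJA 1 h and wounding 30 min, with overlap between both MeJA times. The share of all probe sets with neighbouring conditions apart in this way was not counted.

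Set against the highest array of its own genotype, JOX2 was already at 32.8% in Col-0 and 43.7% in Ri17 at 30 min of wounding. JOX4 at that time stood at 2.22% and 4.97%, and at 60 min at 38.3% and 36.9%. JOX3 stood at 11.97% in Col-0 and 9.40% in Ri17 after 1 h of MeJA, the time at which JOX2 and JOX4 had their highest signals. JMT was down to 21.5% and 18.4% of its untreated level at 30 min of wounding and back at 68.2% and 55.2% at 60 min. These shares compare a gene with itself and carry no error, since each is a ratio of 2 single arrays.

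**Figure D2:**
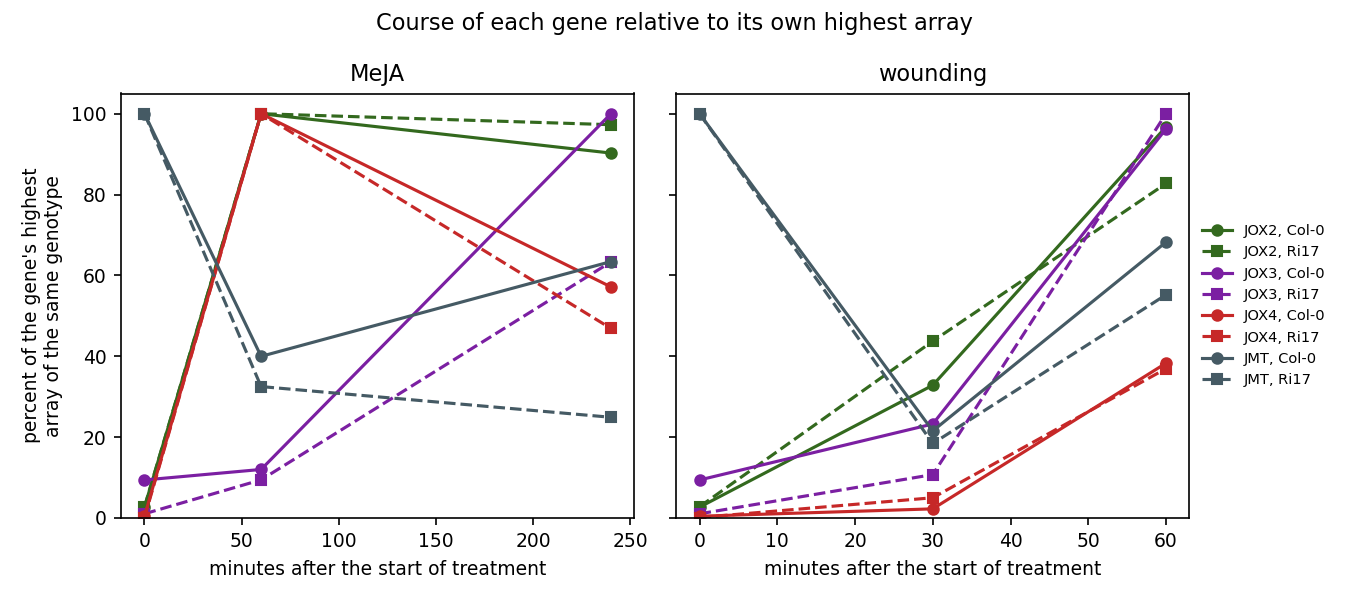
Signal of each gene as a percent of its highest array in the same genotype (vertical axis) against minutes after the start of MeJA (left) or wounding (right), with solid lines and circles for Col-0 and dashed lines and squares for Ri17; lines join separate plants, and both panels start from the same untreated arrays. JOX2 and JOX4 are at their highest at 1 h of MeJA while JOX3 is at 11.97% and 9.40%, and JMT passes through its lowest share at 30 min of wounding.

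The treatments were tested in a limma fit over all kept probe sets, in which each effect is the mean of a Col-0 and a Ri17 difference. Because no group was repeated, its spread is the disagreement between the genotypes after their mean difference is removed. Signals under 37.7 were raised to that floor. An effect of a member written as "at least" has 1 untreated array under the floor, which makes it a bound without an error. The adjusted p beside such an effect comes from the floored values, so it does not measure the real spread of the untreated arrays.

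After 1 h of MeJA, JOX2 rose by 5.21 ± 0.20 (SE, log2 scale, adjusted p = 6.51e-05), a 37.1-fold change, and JOX4 rose by at least 8.05 (adjusted p = 6.51e-05). JMT fell by 1.47 ± 0.32 (adjusted p = 0.0123), which left it 2.78-fold lower. JOX3 did not pass, at a floored 1.73 ± 0.67 (adjusted p = 0.0903), with 0.35 in Col-0 and a floored 3.11 in Ri17. Thus 2 members rose and 1 fell, where 15.7% of all probe sets tested were called higher and 15.8% lower. The median was 3.47 over the members, in part from the floored JOX3 value, and 0.01 over all probe sets. JOX3 passed when the Col-0 control was left out (a floored 3.03, adjusted p = 0.0057), and measured 0.44 when the Ri17 control was left out. The call for JMT was lost without the Col-0 array (-1.39, adjusted p = 0.0901) or the Ri17 array (-1.56, adjusted p = 0.0673) at 1 h of MeJA, and without the untreated Ri17 array (-1.20, adjusted p = 0.0738). It was also lost without the detection filter (adjusted p = 0.0602) and in a fit with no wounded arrays (adjusted p = 0.0557).

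After 4 h of MeJA, JOX2 stood 5.12 ± 0.20 above the untreated level (adjusted p = 2.49e-05). JOX3 had risen by at least 4.64 (adjusted p = 0.0019) and JOX4 by at least 7.10 (adjusted p = 3.27e-05). JMT fell by 1.33 ± 0.32 (adjusted p = 0.0155), with -0.66 in Col-0 and -2.01 in Ri17. With 3 members higher and 1 lower, all 4 were called at a time when 18.8% of probe sets were higher and 18.7% lower. JOX3 measured 3.35 when the Ri17 control was left out and a floored 5.93 when the Col-0 control was left out. JMT lost its call without Ri17 at 4 h (-0.76, adjusted p = 0.0687) or the untreated Ri17 array (-1.06, adjusted p = 0.0931), and measured -1.90 without Col-0 at 4 h. Its call was also lost without the detection filter (adjusted p = 0.0678) and in a fit with no wounded arrays (adjusted p = 0.0615).

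Between the MeJA times, JOX3 was higher at 4 h by 2.91 ± 0.67 (adjusted p = 0.03), a 7.50-fold difference seen in both genotypes at 3.06 and 2.75. The other members did not pass, JOX2 at -0.09 ± 0.20 (adjusted p = 0.82), JOX4 at -0.95 ± 0.35 (adjusted p = 0.116) and JMT at 0.14 ± 0.32 (adjusted p = 0.835). At 4 h, 6.69% of the tested probe sets exceeded their 1 h level and 7.93% lay below it, as called by the same test. The JOX3 call was lost without any 1 of the 4 MeJA arrays (2.48 to 3.34, adjusted p = 0.110 to 0.208) or either array at 30 min of wounding (adjusted p = 0.0641). Without either of the latter arrays JOX4 passed (adjusted p = 0.0275). The JOX3 call was also lost without the detection filter (adjusted p = 0.141) and in a fit with no wounded arrays (adjusted p = 0.0940), where JOX4 passed (adjusted p = 0.0448).

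At 30 min of wounding, JOX2 rose by 3.81 ± 0.20 (adjusted p = 6.97e-05), a 14.0-fold change, and JOX4 by at least 3.14 (adjusted p = 0.00106). JMT fell by 2.33 ± 0.32 (adjusted p = 0.00271), which was 5.03-fold and similar in Col-0 (-2.22) and Ri17 (-2.44). JOX3, at a floored 2.30 ± 0.67, was just outside the threshold (adjusted p = 0.0514). Among all probe sets 9.63% were higher and 10.5% lower. JOX3 passed with the Col-0 control left out (a floored 3.60, adjusted p = 0.00425), after quantile normalization (adjusted p = 0.0447), after median centring (adjusted p = 0.0348), with Present calls on at least 5 arrays (adjusted p = 0.0323) and with an intensity trend (adjusted p = 0.0433), and measured 1.01 without the untreated Ri17 array. JOX4 measured at least 2.50 without Ri17 at 30 min and at least 3.78 without Col-0 at 30 min.

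At 60 min of wounding, JOX2 stood 5.05 ± 0.20 above the untreated level (adjusted p = 2.24e-05), JOX3 at least 4.94 (adjusted p = 0.00178) and JOX4 at least 6.64 (adjusted p = 4.54e-05). JMT measured -0.70 ± 0.32 and did not pass (adjusted p = 0.148). With 3 members higher and none lower, the background was 12.1% higher and 16.1% lower. The median was 4.997 over the members, in part from the floored JOX3 value, and -0.14 over all probe sets. JOX3 measured 3.65 when the Ri17 control was left out and a floored 6.24 when the Col-0 control was left out. JMT was called lower without either array at 4 h of MeJA (-0.70, adjusted p = 0.0413).

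**Figure D3:**
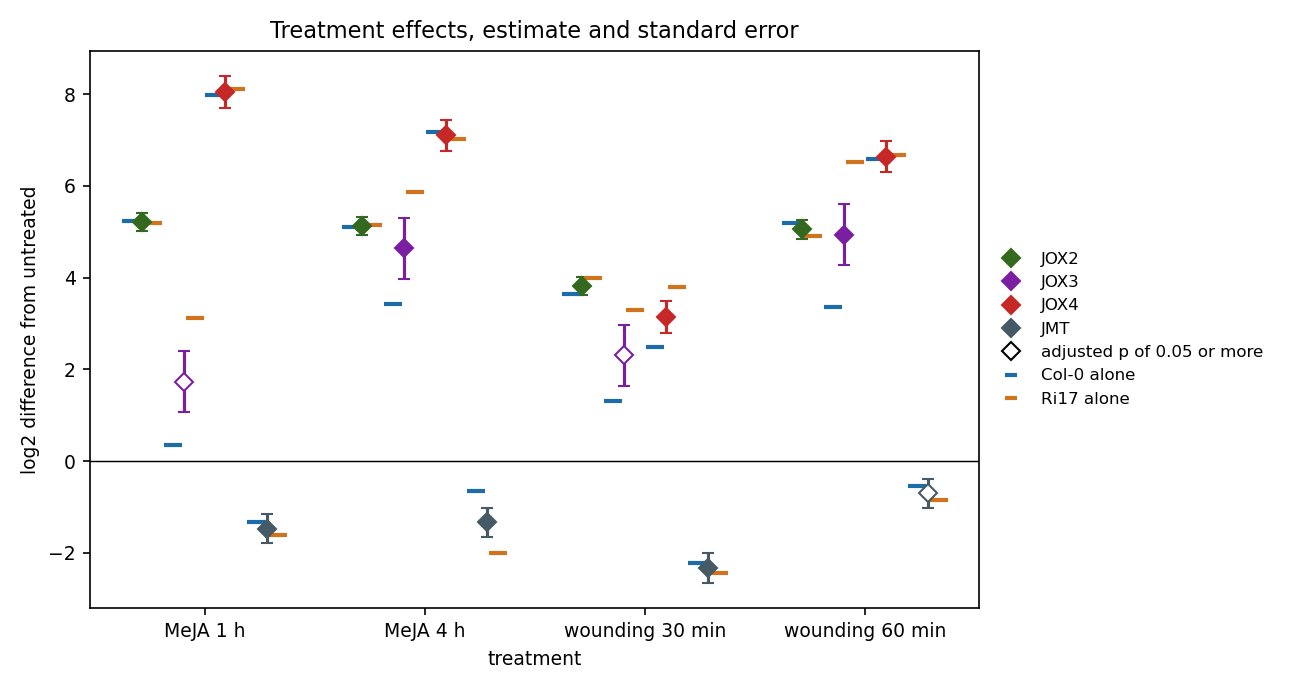
Log2 difference from untreated (vertical axis) for each treatment and time, with diamonds for the estimate over both genotypes, bars for its standard error, open diamonds where the adjusted p is 0.05 or more, and short lines for Col-0 and Ri17 alone. JOX4 (every time) and JOX3 (every time) are bounds because of an untreated Ri17 array under the floor, the genotypes lie closest together for JOX2 under MeJA, and JMT is below 0 at every time.

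Between the wounding times, 3 members were higher at 60 min. JOX4 differed by 3.50 ± 0.35 (11.3-fold, adjusted p = 0.0093), JOX2 by 1.24 ± 0.20 (2.36-fold, adjusted p = 0.0259) and JMT by 1.62 ± 0.32 (3.08-fold, adjusted p = 0.0408). JOX3 measured 2.64 ± 0.67 (adjusted p = 0.0755). The share of tested probe sets called higher at 60 min was 2.67%, and 1.72% were called lower. JOX2 lost its call without any 1 of the 8 treated arrays (1.03 to 1.45, adjusted p = 0.0650 to 0.172), and JMT without any 1 array other than those at 4 h of MeJA (1.49 to 1.76, adjusted p = 0.0506 to 0.242). JOX4 lost it without the Col-0 array at 30 min (2.86, adjusted p = 0.0558) or the Ri17 array at 60 min (3.62, adjusted p = 0.0755), and measured 4.14 without the Ri17 array at 30 min. JOX3 passed without either untreated array (adjusted p = 0.0237). All 3 calls were lost when the MeJA arrays were taken out of the fit (adjusted p = 0.173 for JOX2, 0.131 for JOX4 and 0.131 for JMT) and without the detection filter (0.0634, 0.0549 and 0.144).

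At a matched time of 1 h, wounding and MeJA were set against each other directly. The untreated arrays do not enter these differences, but they enter the errors and p-values of the fit. JOX3 was higher after wounding by 3.21 ± 0.67 (9.25-fold, adjusted p = 0.0108), with 1857.6 and 3466.0 against 231.1 and 325.8. JOX4 was lower after wounding by 1.41 ± 0.35 (2.66-fold, adjusted p = 0.0192). JOX2 measured -0.16 ± 0.20 (adjusted p = 0.571) and JMT 0.77 ± 0.32 (adjusted p = 0.103). Among all probe sets 14.2% were higher and 20.3% lower after wounding, with a median of -0.16. JOX3 lost its call without the Col-0 array (2.78, adjusted p = 0.0869) or the Ri17 array (3.64, adjusted p = 0.0514) at 1 h of MeJA, or the Ri17 array at 60 min (2.53, adjusted p = 0.0800). JOX4 lost it without any 1 of the 4 arrays compared (-1.53 to -1.29, adjusted p = 0.0587 to 0.113), and JMT passed without either array at 4 h of MeJA (adjusted p = 0.0289). Both calls were also lost without the detection filter (adjusted p = 0.0689 for JOX3 and 0.0811 for JOX4). The tissue question and the control differences given above apply to this comparison too.

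Over all conditions no member passed the test between Ri17 and Col-0. The log2 differences, Ri17 minus Col-0, were 0.01 ± 0.13 for JOX2, -0.19 ± 0.42 for JOX3, 0.09 ± 0.22 for JOX4 and 0.19 ± 0.20 for JMT (limma adjusted p = 0.882 to 0.994). The signs for JOX2, JOX3 and JOX4 turned under another scaling or floor. In an exact two-sided sign-flip test over the 5 paired differences the p-values were 0.8125, 0.875, 1 and 0.5, and 5 pairs cannot give a p under 0.05. No probe set of the 15382 passed in limma (0%), and 951 had an unadjusted p under 0.05.

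Within single conditions a genotype difference counted when it reached 1 in log2 units and the brighter array was called Present, which held for 2 of 20 comparisons of the members. Untreated, JOX3 was lower in Ri17 by at least 2.26, with 34.6 against 180.8. By the same rule of 1 log2 unit, 5.56% of all probe sets differed in untreated plants and 2.43% were lower in Ri17. The authors' deposited table gives JOX3 a log2 ratio of -2.0 and a decrease call. At 30 min of wounding JOX4 was higher in Ri17 by 1.12, with 522.3 against 240.5, where 4.5% of probe sets met the same rule. The authors' deposited table gives that pair a log2 ratio of 0.8 and an increase call.

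The remaining differences were smaller. JOX3 at 60 min of wounding was higher in Ri17 by 0.90, with 3466.0 against 1857.6. JMT was higher in Ri17 in 4 of 5 conditions, by 0.32 to 0.63, and lower at 4 h of MeJA, at -0.72. For JOX2 the differences ran from -0.28 to 0.36, and both JOX2 and JOX4 differed by less than 0.1 at 1 h of MeJA. At the other conditions the share of probe sets meeting the rule of 1 log2 unit was 1.14% at 1 h of MeJA, 1.7% at 4 h and 7.83% at 60 min of wounding. These differences have no replicate check.

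**Figure D4:**
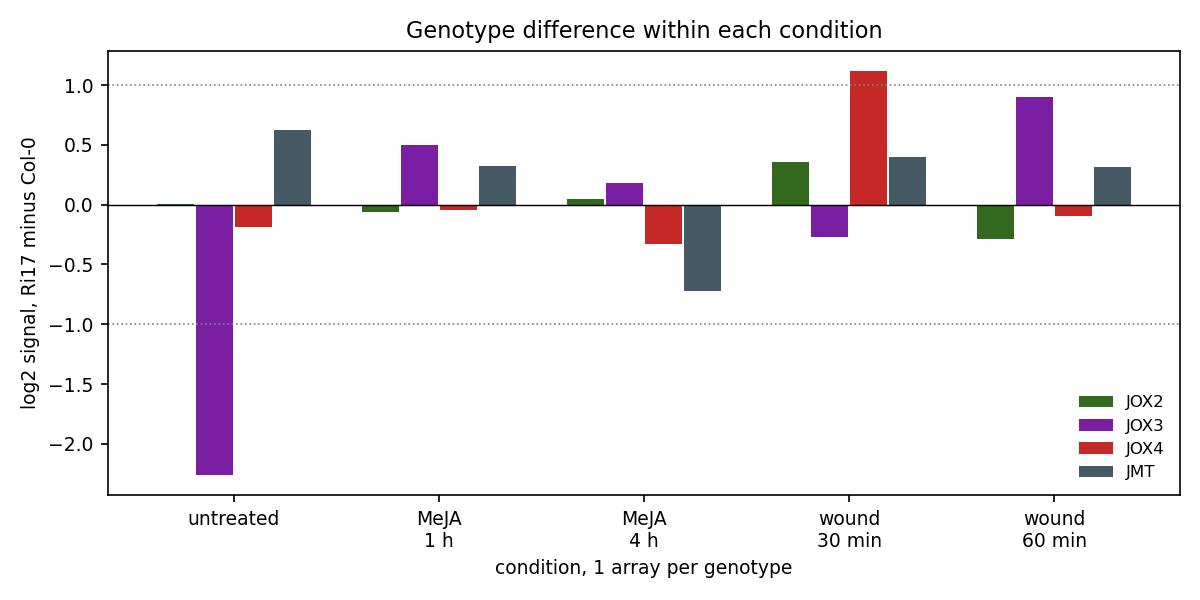
Log2 signal in Ri17 minus Col-0 (vertical axis) for each gene in each of the 5 conditions, 1 array per genotype, so bars carry no error; dotted lines mark 1 and -1. JOX3 in untreated plants (-2.26, a bound) and JOX4 at 30 min of wounding (1.12) are past these lines, and the JMT bar is below 0 at 4 h of MeJA alone. The untreated JOX4 bar has no meaning as a level difference, since both arrays were called Absent.

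Whether the genotypes responded differently was tested with an interaction term, in which the 2 times of a treatment stood in for repeats. For JOX3 the response in Ri17 minus that in Col-0 measured a floored 2.60 ± 0.54 under MeJA (unadjusted p = 0.00552, limma adjusted p = 0.359) and a floored 2.58 ± 0.54 after wounding (unadjusted p = 0.00576, limma adjusted p = 0.226). Both values share the untreated Ri17 array under the floor and did not pass. JMT measured -0.82 ± 0.49 under MeJA (limma adjusted p = 0.515) and -0.27 ± 0.49 after wounding (limma adjusted p = 0.819). JOX2 measured -0.01 ± 0.36 and 0.03 ± 0.36, and JOX4 a floored -0.00 ± 0.55 and 0.70 ± 0.55. No probe set passed for MeJA (0%, 1915 at an unadjusted p under 0.05) and 1 passed for wounding (0.0065%, 2463 at an unadjusted p under 0.05). In simulated data, with shifts only in probe sets of a mean signal above the median, the MeJA test recovered 0 of 100 genes changed by 1. It also recovered 0 of 100 changed by 2, so a miss here says little.

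Other genes of jasmonate breakdown were hardly covered. Of 13 listed jasmonate catabolism genes 5 had a named probe set, and apart from the members this was JOX1 (AT3G11180), the fourth oxidase gene. JOX1 was called Absent on all 10 arrays at signals of 6.0 to 48.6 and was not tested. Among 6 probe sets described as leucoanthocyanidin dioxygenase-like or anthocyanidin synthase, a group chosen after the descriptions were read, 4 were kept. Beside the 3 JOX genes this was 254283_s_at, which has no gene name in the annotation used and had floored values of -1.67 at 1 h of MeJA, -1.84 at 4 h and -1.85 at 60 min of wounding (adjusted p = 0.0456, 0.0281 and 0.0347). At 30 min it measured -0.15 and did not pass (adjusted p = 0.879).

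In the list of 2-oxoglutarate dioxygenases, 5 of 20 genes had a named probe set and 4 were kept, the 3 JOX genes and F3H. F3H, the flavanone hydroxylase gene of flavonoid synthesis, fell at every treatment time, with -2.40 ± 0.40 at 1 h of MeJA (adjusted p = 0.00443), -5.08 at 4 h, -5.04 at 30 min and -5.54 at 60 min of wounding. Its signals were 2883.9 and 4763.1 untreated and 67.6 to 907.7 on treated arrays, so dioxygenase genes of this list went both ways.

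Of 11 listed SABATH methyltransferase and methyl esterase genes, JMT and BSMT1 had a named probe set. BSMT1 methylates salicylic and benzoic acid. In Col-0 its signal was 5.8 untreated, 3926.7 and 3162.5 under MeJA, and 2.8 and 321.2 after wounding, and in Ri17 10.3, 4007.3, 1507.4, 45.6 and 495.7. BSMT1 rose by at least 6.72 and 5.86 at the MeJA times and by at least 3.40 at 60 min of wounding, each a bound because both controls lay beneath the floor. At 30 min, with the treated Col-0 array beneath the floor as well, it did not pass (adjusted p = 0.842). JMT and BSMT1 thus went in opposite directions under MeJA. Among 9 probe sets described as related methyltransferases 5 were kept, and JMT was the only one of these called in any treatment against untreated. The other kept probe sets had highest signals of only 51.4 to 91.5, near the floor of 37.7, so a call was hardly possible for them.

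Genes of jasmonate synthesis, of which 5 of 16 listed had a named probe set, rose with the treatments in most cases. LOX2, AOS, OPR3 and OPCL1, which take fatty acids through allene oxide and its reduced products towards jasmonic acid, rose at all 4 treatment times, and AIM1, a peroxisomal β-oxidation gene, rose at both wounding times. At 30 min of wounding OPCL1 rose by 3.84 ± 0.21 and OPR3 by 3.53 ± 0.31, and their differences between 60 min and 30 min were -0.01 and 0.44 (adjusted p = 0.993 and 0.478). Between the MeJA times OPCL1 fell by 1.56 ± 0.21 (adjusted p = 0.00584), where JOX3 rose. The synthesis list had a median of 2.09, 2.03, 1.84 and 2.31 in the 4 treatment comparisons. In the same order the medians over the members were 3.47, 4.88, 2.72 and 4.997, and those over all probe sets 0.01, 0.00, -0.08 and -0.14. Each median over the members rests in part on a floored value of JOX3, and the members include JMT, which was negative throughout. All of these comparisons share the untreated arrays.

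**Figure D5:**
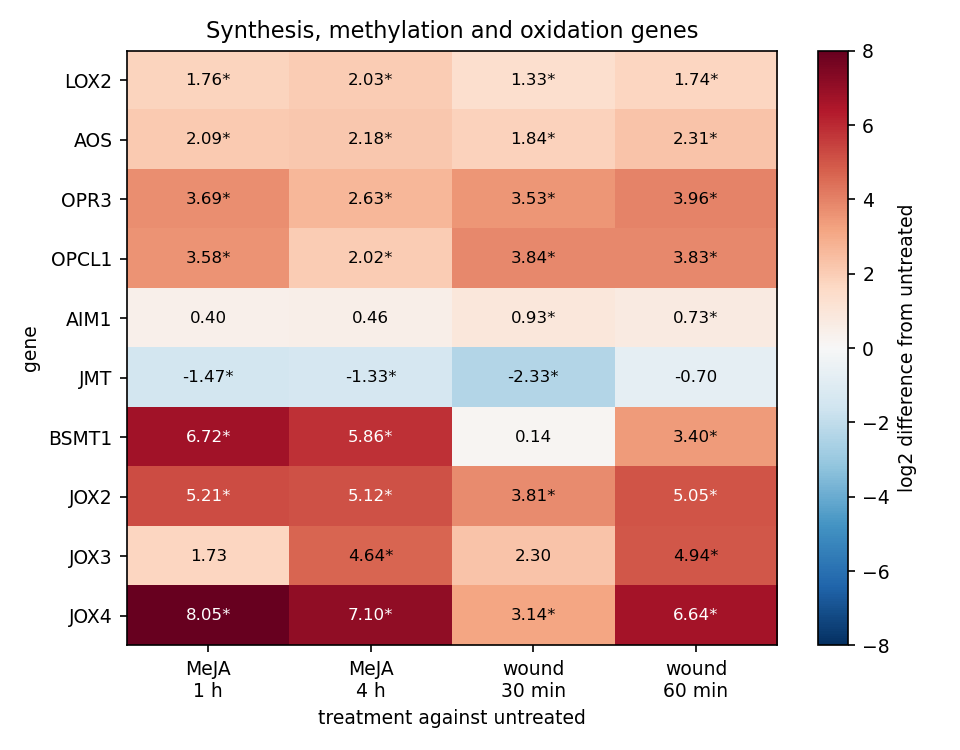
Log2 difference from untreated (colour and printed value) for genes of jasmonate synthesis (LOX2, AOS, OPR3, OPCL1, AIM1), methylation (JMT, BSMT1) and oxidation (JOX2, JOX3, JOX4) at each treatment time, with an asterisk where the adjusted p is under 0.05. Values of JOX3 and JOX4, and those of BSMT1 other than at 30 min of wounding, are bounds because untreated arrays lay under the floor, and JMT is the row with negative values throughout.

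The genes whose signals followed each member most closely were taken from 6280 named genes by Pearson's r of log2 signal over the 10 arrays, which share treatments and controls, so r is a description. JOX2 was followed by NAI1, a basic helix-loop-helix factor gene of endoplasmic reticulum bodies (r = 0.994, and 0.962 over the 8 treated arrays). Next came AT2G37580 (r = 0.985, and 0.879 over treated arrays) and AT5G02940 (r = 0.982, and 0.879 over treated arrays). For JOX3 these were AT5G10820 (r = 0.979, and 0.982 over treated arrays), AT1G23850 (0.950 and 0.907) and AT4G16146 (0.939 and 0.938). For JOX4 they were AT1G32460 (r = 0.986, and 0.989 over treated arrays), AT5G44050 (0.982 and 0.977) and AT2G20780 (0.979 and 0.968). JMT had looser companions in AT1G08180 (r = 0.896, and 0.848 over treated arrays), AT3G15430 (0.868 and 0.755) and AT3G51710 (0.858 and 0.756). The lowest signals of NAI1, AT1G08180 and AT3G51710 (5.3, 28.5 and 23) lay under the floor. Among the members themselves JOX2 and JOX4 were the most alike (r = 0.943, and 0.976 over treated arrays), while JOX3 and JOX4 had r = 0.654 over all arrays and 0.181 over treated arrays. JMT had r = -0.554 with JOX2, -0.249 with JOX3 and -0.329 with JOX4 over all arrays. Over treated arrays the sign turned, with 0.741, 0.656 and 0.690 in the same order.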

How the data were processed

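RNA from 10 samples was hybridised to ATH1 arrays, 1 per genotype and condition. The authors made linear signal intensities with GCOS, per the submitters' processing notes (version not given in the sources used here), and the deposited values have a trimmed mean of 500.1 on every array (2% trimmed at each end). The deposited tables also hold detection calls with p-values, and per condition a log2 ratio of Ri17 over Col-0 with a change call and its p-value, per the file headers. Signals were identical in both deposited tables (largest difference 0.0).

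A floor of 37.7, the 75th percentile of Absent-call signals, replaced lower values before log2 was taken, and probe sets Present on at least 2 arrays were kept. limma 3.58.1 in R 4.3.3 (lmFit, eBayes) fitted genotype and condition additively to all 15382 kept probe sets with 4 residual degrees of freedom. The interaction fit had 2. Tests were two-sided, with Benjamini-Hochberg adjustment over all kept probe sets and a threshold of 0.05. Every adjusted p given is from limma. With 1 array per group, p-values measure the spread between arrays of the 2 genotypes, which mixes array noise with real differences in response, so precision is limited by how few arrays there are. A fold change is 2 to the power of the log2 difference. Python 3.11.15, NumPy 2.4.6, pandas 2.3.3, SciPy 1.17.1 and Matplotlib 3.10.9 served for tables, the sign-flip test and plots.

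A probe set was named where the platform annotation listed 1 gene (13513, with 13436 found in the TAIR10.1 gene table). The annotation listed several genes for 503 and none for 8794, controls included, and 5 of the latter (LOX2, AOS, OPR3, F3H, CA1) were named here from their deposited descriptions. The text names the 4 members, from each list up to 2 higher and 2 lower genes per comparison or every kept gene of lists with 4 or fewer, and the 3 genes most like each member among those with a log2 range of at least 1. The synthesis genes beyond that rule, and 254283_s_at, were named after their values were seen. The members and lists were chosen with earlier results of these data known. No sequences were used here.

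Tested on simulated data for 15382 probe sets, in which 100 were shifted by 1 and another 100 by 2 (log2), the fit recovered 25 and 77 for MeJA at 1 h, 19 and 76 for wounding at 60 min, and 73 and 96 for genotype. The shifted probe sets were drawn from those with a mean signal above the median, and no others were changed. In the data 2413 probe sets were called higher and 2427 lower at 1 h of MeJA. The recoveries therefore do not give the power of the tests in these data. Alternatives covered scaling, floor, detection filter, variance model, subsets of conditions and leaving out each array.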

Additional observations from a re-analysis of the deposited data

Results flagged for a closer look

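JMT moved in opposite directions between 1 h and 4 h of MeJA in the 2 genotypes. Its log2 difference, 4 h minus 1 h, was 0.67 in Col-0 (280.0 to 444.3) and -0.38 in Ri17 (351.0 to 268.9). The authors' deposited table gives the Ri17 over Col-0 log2 ratio as 0.4 with an increase call at 1 h and -0.8 with a decrease call at 4 h. Each value rests on 2 single arrays, and the difference between the genotypes was not tested. The result was flagged for its opposite signs alone, and both values are under 1 log2 unit in size. The share of all probe sets with opposite signs was not counted.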

How the results depend on the processing

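Of 384 estimates for single members with 1 array left out, 324 kept their direction and side of the threshold. A call was lost in 36 and gained in 10, and 14 changed sign. Of 308 under other settings the numbers were, in the same order, 279, 16, 6 and 7. Leaving out an array outside a comparison cannot change its estimate, only its error and p, so part of this agreement was fixed in advance. The same holds for the detection filter and variance model, which leave the estimates as they were. The other settings also include the sign-flip test of each member, which was compared by direction alone. JOX2 and JOX4 stayed called against untreated in all 4 treatment comparisons under every setting (highest adjusted p = 0.0212, JOX4 at 30 min of wounding). The number of members called was 2 to 4 at 1 h of MeJA, 3 to 4 at 4 h, 3 to 4 at 30 min and 3 to 4 at 60 min of wounding when 1 array was left out. It was 0 to 1 between MeJA times (main 1), 0 to 3 between wounding times (main 3), 0 to 3 for wounding at 60 min against MeJA at 1 h (main 2) and 0 for each genotype comparison. Without the detection filter it was 0 in all of the first 3 of these, it was 0 between wounding times on wounded and untreated arrays alone, and it was 1 for wounding against MeJA with a floor 0.5 times the main one, where JOX4 was lost (adjusted p = 0.0520). The genotype count within conditions fell from 2 to 1 with the authors' deposited log2 ratios.

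JMT lost its calls under MeJA without the detection filter (adjusted p = 0.0602 at 1 h, 0.0678 at 4 h) and on MeJA and untreated arrays alone (0.0557 and 0.0615). On those arrays the JOX3 difference between MeJA times was lost (adjusted p = 0.0940) and that of JOX4 gained (0.0448). JOX3 between wounding times passed with Present calls on at least 5 arrays (0.0487), and JMT there was lost with a floor 2 times the main one (0.0805).

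Signs turned for small differences. Leaving out 1 array gave -0.43 to 0.71 for JMT between MeJA times and -0.35 to 0.025 for JOX2 between wounding and MeJA. For Ri17 minus Col-0 it gave -0.072 to 0.088 for JOX2, -0.46 to 0.33 for JOX3 and -0.16 to 0.20 for JOX4. For the interaction it gave -0.060 to 0.048 (JOX2, MeJA), -0.15 to 0.14 (JOX4, MeJA) and -0.29 to 0.35 (JOX2, wounding). Median centring gave -0.0046 for JOX2 between genotypes and -0.0085 for its wounding interaction, quantile normalization 0.033 and 0.11 for the MeJA interactions of JOX2 and JOX4, a floor 0.5 times the main one -0.11 for JOX4 between genotypes and 1.00 for its MeJA interaction, and a floor 2 times the main one 0.0092 for JOX3 between genotypes. The interaction could not be fitted without an untreated array. Of the 12 genes most like the members, 2 were among the closest 3 by Spearman's rho and 2 over the treated arrays alone. The causes were not tested. Arrays of a condition are paired through the condition term in every fit, and no group has a second replicate number to block on.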
